A study of Mus musculus with 9 samples.

Results

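The odorant-binding proteins, lipocalins and major urinary proteins of the lateral nasal gland were taken as all probe sets whose platform annotation holds a symbol of Obp, Lcn or Mup followed by a digit. The rule found 10 probe sets of 9 genes among the 22626 probe sets analysed: Obp1a, Obp2a, Lcn2, Lcn3, Lcn4, Lcn5, Lcn8, Mup5 and Mup3, the last with 2 probe sets. All 10 probe sets are annotated with 1 symbol. Transcripts of this gland, which secretes into the nasal cavity of the mouse, were measured on 9 1-colour Affymetrix arrays. There were 3 arrays of Cyp2g1-null mice, which lack a cytochrome P450 of the nasal mucosa and its glands, 4 of wild-type B6 mice and 2 of wild-type 129/Sv mice. All mice were males of 2 to 3 months, and 1 array carried RNA of glands pooled over 10 animals of 1 group. The null line has a mixed 129/Sv x C57BL/6 background, and both wild-type strains served as its controls. Each pool counts as 1 replicate, so an animal's own level is not seen, and the p-values measure the spread between pools. The labels do not say which part of Cyp2g1 was deleted.

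Lipocalins are small secreted proteins folded into a barrel that holds a hydrophobic ligand. Odorant-binding proteins are lipocalins secreted into nasal mucus, where they bind airborne odorants, and vomeronasal secretory proteins such as Lcn3 and Lcn4 are made by glands of the nasal septum and the vomeronasal organ. Major urinary proteins, best known from liver and urine, bind volatile pheromones, and some of them are made in exocrine glands of the head instead.

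By RefSeq, 6 of the 9 genes lie on chromosome 2, in the order Lcn8, Lcn5, Obp2a, Lcn3, Lcn4 and Lcn2 among 13 genes named Obp or Lcn. Obp2a and Lcn3 are separated in that order by Obp2b alone. Mup5 and Mup3 lie on chromosome 4, among 22 genes named Mup, with Mup20 between them, and Obp1a lies on chromosome X beside Obp1b. Mup genes are close copies of each other, and probe sets with the suffix _x_at can match several transcripts, so the Mup3 values may hold signal of other copies. Whether the Mup5 probe set also matches other copies was not checked.

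Promoter windows, 250 bases before to 50 after the start of the gene, were found for 8 of the 9 genes in a RefSeq table of build GRCm38.p6; Mup5 was not matched. Shown are Lcn3, the member that differed between null and B6 glands, Obp2a and Obp1a, the bright members that varied together, and Lcn4, which shares the longest run with Obp2a. They lie at chr2:25765283-25765582 on the plus strand (Lcn3), chr2:25699824-25700123 on the plus strand (Obp2a), chrX:78091325-78091624 on the minus strand (Obp1a) and chr2:26671233-26671532 on the minus strand (Lcn4). Capitals mark TATAAA, the core of the TATA box.
Lcn3: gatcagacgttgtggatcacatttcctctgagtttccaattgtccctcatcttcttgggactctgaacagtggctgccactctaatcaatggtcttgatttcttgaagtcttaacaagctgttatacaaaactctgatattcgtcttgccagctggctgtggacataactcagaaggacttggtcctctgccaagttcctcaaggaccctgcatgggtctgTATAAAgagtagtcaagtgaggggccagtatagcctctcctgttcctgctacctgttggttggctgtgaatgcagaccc
Obp2a: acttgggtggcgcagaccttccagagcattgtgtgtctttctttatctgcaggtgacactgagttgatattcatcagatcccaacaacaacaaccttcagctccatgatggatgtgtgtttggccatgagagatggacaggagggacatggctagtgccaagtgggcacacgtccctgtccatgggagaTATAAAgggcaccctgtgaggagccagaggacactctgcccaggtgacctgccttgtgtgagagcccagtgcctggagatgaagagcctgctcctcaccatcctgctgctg
Obp1a: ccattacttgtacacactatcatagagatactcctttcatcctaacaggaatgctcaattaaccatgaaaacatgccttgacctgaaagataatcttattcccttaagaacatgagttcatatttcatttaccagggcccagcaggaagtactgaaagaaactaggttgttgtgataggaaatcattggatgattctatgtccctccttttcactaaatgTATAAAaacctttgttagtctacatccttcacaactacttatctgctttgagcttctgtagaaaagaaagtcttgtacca
Lcn4: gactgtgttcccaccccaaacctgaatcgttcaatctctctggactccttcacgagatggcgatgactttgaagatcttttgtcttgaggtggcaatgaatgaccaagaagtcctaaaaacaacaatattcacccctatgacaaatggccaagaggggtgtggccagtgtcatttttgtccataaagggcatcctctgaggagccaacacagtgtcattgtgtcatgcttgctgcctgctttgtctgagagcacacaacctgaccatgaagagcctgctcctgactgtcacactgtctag

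TATAAA was searched on both strands and was found in 4 of the 8 windows, against 13.6% of all 32851 windows of the table. All 4 matches were on the gene's strand, and their first base lay at position -29 in Lcn3, -30 in Obp1a, -28 in Lcn5 and -61 in Obp2a, where -1 is the base before the start. AGAACA, a half-site of steroid hormone receptors such as the androgen receptor, was found in 2 of the 8 windows, at -144 in Obp1a and on the opposite strand at -204 in Mup3, against 19.0% of all windows. TTCNNNGAA, the site bound by Stat5, was in 0 of the 8 windows and in 8.3% of all. No 2 of these matches overlapped. The windows of Lcn4 and Obp2a shared the run ATGAAGAGCCTGCTCCT just after the start of each gene, 17 bases long, against longest shared runs of 7 to 11 bases in the other 27 pairs. The run begins at position 16 in Lcn4 and 18 in Obp2a, with the letters ATG of a start codon. It thus lies in the transcribed part and not before the gene. These matches describe letters in a window and do not show binding.

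The values are MAS5 signals on a linear scale. Array medians lay between 518.55 and 550.05, and the correlation of array pairs over all probe sets was 0.925 to 0.942, with 0 pairs of identical arrays. The Cyp2g1 signal was 55.7, 140.6 and 201.1 in null glands, against 5916.8, 748.2, 2006.9 and 2799.4 in B6 and 207.5 and 981.2 in 129/Sv glands. The null arrays lay below all wild-type arrays, but null array 3 and 129/Sv array 1 nearly met. Whether the Cyp2g1 probes lie in the deleted part is unknown here. The ratio of 3' to 5' probe sets, a sign of RNA quality, was 2.696 to 2.805 for beta-actin in null, 2.586 to 2.897 in B6 and 2.618 to 2.87 in 129/Sv arrays. Of 13 probe sets for markers of serous gland acini 12 passed the signal filter, and of 12 hepatocyte probe sets the highest single signal was 449.3, below the array medians.

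Of the 10 probe sets, 4 exceeded the array median on at least 2 arrays and could be tested: Lcn3, Obp1a, Obp2a and Mup5. All 4 did so on all 9 arrays. The other 6 were below the median on all 9 arrays, so this gland array gives them no firm level. Differences were tested with limma on log2(signal + 16), with p-values adjusted by Benjamini-Hochberg over all 12575 probe sets that passed. A change in bulk glands can come from fewer cells of a type or from less RNA per cell, and the 2 cannot be told apart here.

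**Figure D1:**
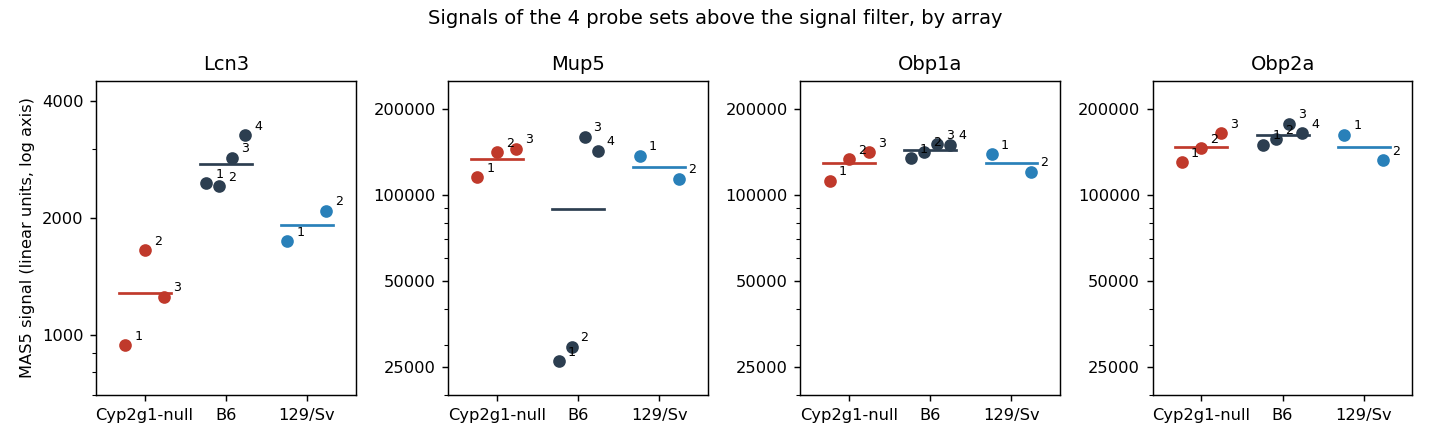
Signals of Lcn3, Mup5, Obp1a and Obp2a on each array (linear MAS5 units, log axis), with the array number beside each point and a line at the group mean of the signals. For Lcn3 the null arrays lie between 939.3 and 1652.8 and all B6 arrays at 2411.9 or above, whereas for Mup5 the B6 arrays fall into a low and a high pair.

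Lcn3, also known as vomeronasal secretory protein 1, was lower in null than in B6 glands. Its signals were 939.3, 1652.8 and 1251.8 in null glands, against 2452.8, 2411.9, 2857.3 and 3269.1 in B6 and 1742.6 and 2088 in 129/Sv glands. All 3 null arrays lay below all B6 and both 129/Sv arrays, and both 129/Sv arrays lay below all B6 arrays. The mean signals were 1281 ± 357.7 in null (SD, n = 3), 2748 ± 401.5 in B6 (SD, n = 4) and 1915 ± 244.2 in 129/Sv glands (SD, n = 2).

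Against B6 the fitted log2 difference of Lcn3 was -1.12 (SE 0.176, 95% interval -1.50 to -0.74), a signal 2.17-fold lower (limma adjusted p = 0.00335). Of all tested probe sets 2.18% were called in this comparison, 1.07% as lower, and Lcn3 was the 1 of 4 members called. In 13.5% of all tested probe sets the null and B6 arrays did not overlap. The call held under all 21 alternative settings, with adjusted p-values of 0.00162 to 0.0322 and log2 differences of -1.32 to -0.91.

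Against 129/Sv the log2 difference of Lcn3 was -0.60 (SE 0.211, 95% interval -1.06 to -0.15), which did not pass (limma adjusted p = 0.213). The null arrays were below both 129/Sv arrays, and the groups did not overlap in 31.5% of all tested probe sets either. Between the strains Lcn3 was 0.51 higher in B6 than in 129/Sv on the log2 scale (SE 0.2, 95% interval 0.08 to 0.94), which did not pass (limma adjusted p = 0.193). The B6 and 129/Sv arrays did not overlap in 25.1% of all tested probe sets. The comparisons against B6 and against 129/Sv share the null arrays, and the strain comparison shares its arrays with both.

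Lcn3 varied more among the null pools than most probe sets did. The SD of its log2 signals was 0.40 in null, 0.20 in B6 and 0.18 in 129/Sv glands, and 90.5% of tested probe sets had a smaller SD among null arrays (median 0.157). In B6 it was near the middle, with 48.9% of tested probe sets below it.

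The probe sets whose pattern over the 9 arrays was most like that of Lcn3 were Map3k7 (r = 0.977), a kinase of inflammatory signalling, Rhoj (r = 0.972), a small GTPase, Dio1 (r = 0.971), the type 1 iodothyronine deiodinase, Nr2c2ap (r = 0.95) and Rab20 (r = 0.938). Spearman's rho lay between 0.967 and 0.983 in all 5. Against B6 the log2 differences were -1.06 for Map3k7, -1.01 for Rhoj and -0.78 for Dio1 in null glands, with limma adjusted p-values of 0.0032, 0.00202 and 0.00912. Nr2c2ap and Rab20 did not pass (adjusted p = 0.109 and 0.282). These 5 were taken as the most similar of all tested probe sets, on arrays that also hold the group difference, so high values are fixed by the choice.

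Obp1a, an odorant-binding protein of nasal glands, was bright on every array. Its signals were 112206.1, 133337.8 and 140712.5 in null, against 134209.2, 141431.4, 150146.2 and 149696.3 in B6 and 138652.9 and 120391 in 129/Sv glands. The groups overlapped in all 3 comparisons, and the highest array was 1.34-fold above the lowest. The mean signals were 128752 ± 14796 in null (SD, n = 3), 143871 ± 7585 in B6 (SD, n = 4) and 129522 ± 12913 in 129/Sv glands (SD, n = 2).

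The log2 difference of Obp1a was -0.17 against B6 (SE 0.087, 95% interval -0.35 to 0.02, limma adjusted p = 0.41). It was -0.01 against 129/Sv (SE 0.104, 95% interval -0.23 to 0.21, adjusted p = 0.987). Between B6 and 129/Sv it was 0.15 (SE 0.0987, 95% interval -0.06 to 0.37, adjusted p = 0.476), and -0.06 under quantile normalization. None of these passed. The direction against 129/Sv turned in 2 alternatives that left out 1 array.

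Obp2a, a lipocalin of the nose also named Lcn13, was the highest value of the table on all 9 arrays. Its signals were 129905.4, 145851.1 and 164650.1 in null, against 149536.5, 156345.5, 177173 and 164261.9 in B6 and 162222.5 and 131960.9 in 129/Sv glands. The groups overlapped in every comparison, with the highest array 1.36-fold above the lowest. Probe sets at the top of the scale, such as Obp2a, Obp1a and Mup5, can be compressed there, which could not be checked from these values, so small differences and narrow intervals there do not exclude larger changes. Under quantile normalization the differences of Obp2a are 0 by construction, since the top rank is set equal. Obp1a, also near the top of every array, is nearly fixed by it too, with an SE of 0.0418 against B6.

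The log2 difference of Obp2a was -0.14 against B6 (SE 0.0958, 95% interval -0.35 to 0.06, limma adjusted p = 0.526). It was -0.002 against 129/Sv (SE 0.114, 95% interval -0.25 to 0.24, limma adjusted p = 0.998) and 0.14 between B6 and 129/Sv (SE 0.109, 95% interval -0.09 to 0.38, adjusted p = 0.564). None passed. Among B6 arrays the SD of the log2 signal was 0.10 for Obp2a and 0.08 for Obp1a, and 15.3% and 7.6% of tested probe sets varied less there.

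**Figure D2:**
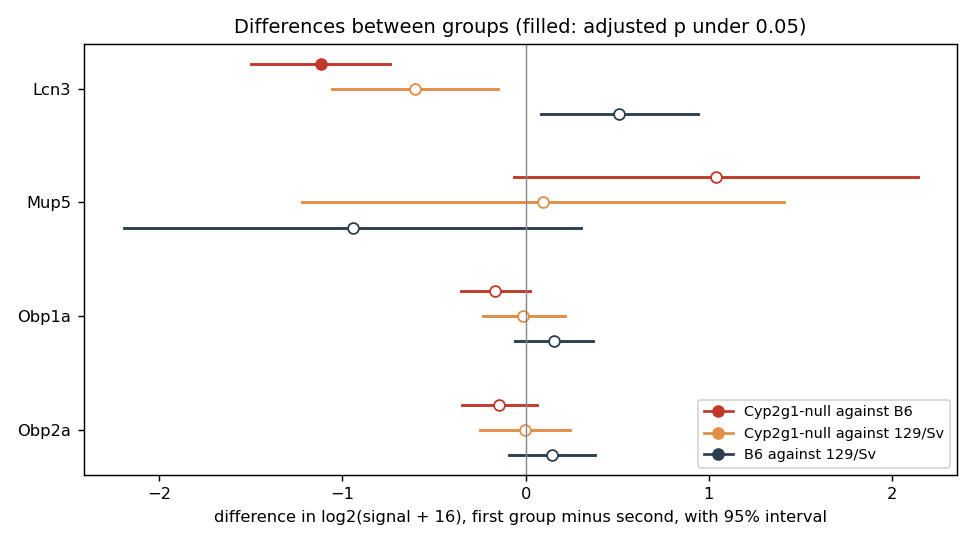
Fitted log2 differences of the 4 tested members with their 95% intervals; filled points passed an adjusted p of 0.05. Only the Lcn3 difference of null against B6 glands is filled, and the Mup5 intervals are the widest of the 4. The shared fit puts the spread among B6 pools into each Mup5 interval.

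Obp1a and Obp2a moved together over the arrays (r = 0.951, Spearman's rho 0.917 over 9 arrays, and r = 0.869 without 129/Sv array 2 and null array 1). Both also followed the signal that 0.1% of the probe sets exceeded, a measure of how bright the top of each array was, which ran from 79408 to 98575: r was 0.816 for Obp1a and 0.84 for Obp2a, and 0.377 and 0.468 without the same pair of arrays. The probe sets most like Obp1a were Obp2a, Wfdc18 (r = 0.949), St3gal5 (r = 0.942), Rps29 (r = 0.933) and Rpl41 (r = 0.926). The last 2 encode ribosomal proteins, and the part of array brightness in these correlations was not tested.

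Mup5, a urinary protein gene described in glands of the head rather than in liver, differed widely among the B6 pools. Its signals were 115371.6, 141173.3 and 145205.9 in null, against 26292.2, 29517.9, 159511.2 and 142899 in B6 and 136961.9 and 113838.9 in 129/Sv glands. B6 arrays 1 and 2 were the lowest of the 9, B6 array 3 was the highest, and B6 array 4 lay below null array 3 and B6 array 3 alone. The null and 129/Sv arrays lay within the range of the B6 arrays.

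The SD of the log2 signal of Mup5 was 0.18 in null, 1.41 in B6 and 0.19 in 129/Sv glands, and 99.8% of tested probe sets varied less among B6 arrays (median 0.209). The log2 difference was 1.04 against B6 (SE 0.512, 95% interval -0.06 to 2.14, limma adjusted p = 0.377). It was 0.09 against 129/Sv (SE 0.612, 95% interval -1.22 to 1.41, adjusted p = 0.982) and -0.94 between B6 and 129/Sv (SE 0.581, 95% interval -2.19 to 0.30, adjusted p = 0.452). The fit shares 1 spread over all groups, so the B6 spread also enters the SE of null against 129/Sv. In a fit of only the null and 129/Sv arrays that difference was again 0.09 (SE 0.121, limma adjusted p = 0.796). Without B6 arrays 1 and 2 the difference of null against B6 was -0.18 (SE 0.116, adjusted p = 0.417) and that of B6 against 129/Sv was 0.27 (SE 0.127, adjusted p = 0.259). The direction of both therefore rests on these 2 arrays.

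B6 arrays 1 and 2 were also the lowest B6 arrays for Obp2a, Obp1a and Lcn3, by smaller margins than for Mup5. How often this order occurs over all tested probe sets was not counted, so it is only a description. Their Obp2a signals were 149536.5 and 156345.5, against 177173 and 164261.9 on B6 arrays 3 and 4. Their Obp1a signals were 134209.2 and 141431.4, against 150146.2 and 149696.3 on B6 arrays 3 and 4. All 4 of these values of B6 arrays 1 and 2 lay above the lowest null array and the lowest 129/Sv array of the same gene. Their beta-actin 3' to 5' ratios were 2.691 and 2.817, inside the range of the other arrays. Over the other 7 arrays Mup5 followed Obp2a (r = 0.936) and Obp1a (r = 0.924), and it followed the signal that 0.1% of the probe sets exceeded (r = 0.989). Over all 9 arrays r was 0.143 with Obp2a, 0.03 with Obp1a and -0.087 with that signal. Spearman's rho was 0.683, 0.517 and 0.433 in the same order. The values of Mup5 fall into 2 clusters, and the arrays left out were chosen by these values.

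**Figure D3:**
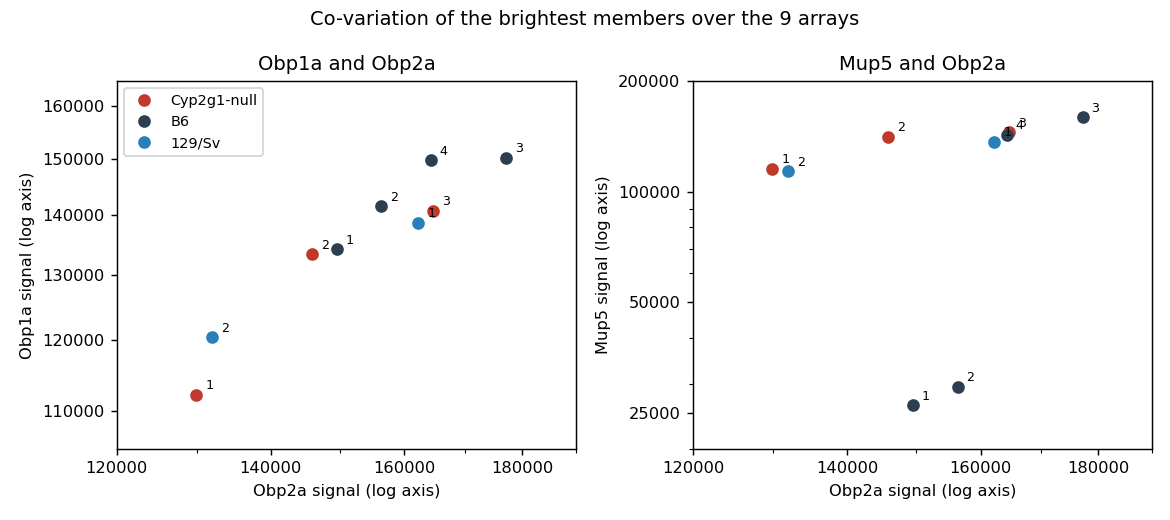
Obp1a (left) and Mup5 (right) against Obp2a on each of the 9 arrays, on log axes, with array numbers beside the points. Obp1a rises with Obp2a over all arrays, while B6 arrays 1 and 2 lie far below the other 7 in Mup5.

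By the rule of likeness over all 9 arrays, the probe sets most like Mup5 were Coa3 (r = 0.982), 2310057J18Rik (r = 0.969), Xab2 (r = 0.954), Wasl (r = 0.945) and Lrp10 (r = 0.944). These values mainly set the 2 clusters of Mup5 apart and rest on B6 arrays 1 and 2: over the other 7 arrays r was 0.635 for Coa3, 0.748 for Lrp10, -0.562 for 2310057J18Rik, -0.309 for Xab2 and -0.179 for Wasl. 2310057J18Rik had signals of 79655.1, 76979.3 and 89707.5 in null, against 607.3, 958.4, 49675.4 and 45604.4 in B6 and 50511.3 and 89549.4 in 129/Sv glands. B6 arrays 1 and 2 were thus low in this probe set as well. Car6, a secreted carbonic anhydrase of serous glands and chosen here after its values were seen, had signals of 64428.1, 29312.4 and 70057.5 in null, against 387.5, 593.7, 8017.5 and 7400.6 in B6 and 10385.4 and 66481.3 in 129/Sv glands. Its 2 lowest arrays were the same pair, and B6 arrays 3 and 4 were also below every null and 129/Sv array. The serous acinar markers other than Aqp5, Lyz1 and Lyz2 set the pair apart among the B6 arrays, in both directions. Slc12a2, a chloride cotransporter, was lower on B6 arrays 1 and 2 by all 3 of its probe sets, among them 1 with signals of 6267.3 and 6754.8, against 10505.1 and 8837.3 on B6 arrays 3 and 4. Dmbt1, a secreted mucosal glycoprotein, was higher there, with signals of 47888.7 and 48638.3, against 39914.2 and 33075 on B6 arrays 3 and 4. Pigr was also higher there by both of its probe sets, in 1 of them with 30728.5 and 34988.9, against 24495.3 and 24595. Bpifa1 was lower there, with 29108.2 and 7654.6, against 29161.3 and 49253.4, so 1 array of the pair nearly met B6 array 3. These serous markers were picked here after their values were seen. The share of all tested probe sets that set this pair apart was not counted. The part of any difference in the pools in these values was not tested.

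**Figure D4:**
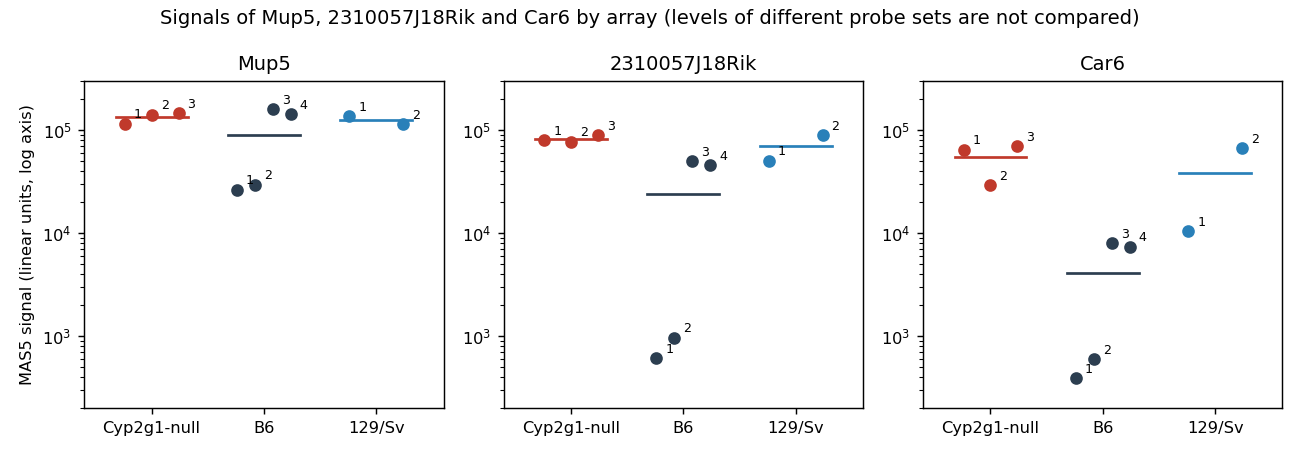
Signals of Mup5, 2310057J18Rik and Car6 by array on 1 log axis, with array numbers and lines at the group means of the signals. B6 arrays 1 and 2 are the lowest 2 arrays in each of the 3 probe sets; levels of different probe sets are not compared.

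The other 6 probe sets stayed below the array medians. Lcn2, which binds bacterial siderophores and is stored by neutrophils, had signals of 214.1, 178 and 54 in null, against 264.1, 228.1, 97.4 and 158.7 in B6 and 243.1 and 374.7 in 129/Sv glands. All null arrays were below both 129/Sv arrays, as groups without overlap were in 26.9% of all 22626 probe sets, and the null and B6 arrays overlapped. In a fit without the signal filter the log2 difference of Lcn2 was -0.39 against B6 (SE 0.539, limma adjusted p = 0.855). It was -1.12 against 129/Sv (SE 0.644, adjusted p = 0.681) and -0.73 between B6 and 129/Sv (SE 0.611, adjusted p = 0.713).

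None of these 3 Lcn2 differences passed. Against B6 the difference was 0.14 without null array 3 and 0.05 without B6 arrays 1 and 2, and against 129/Sv it was -0.59 without null array 3. The probe sets most like Lcn2 over the 9 arrays were Srd5a3 (r = 0.974), Gpc6 (r = 0.942), Map4 (r = 0.935), Vamp5 (r = 0.9) and Stard13 (r = 0.884). All 5 had their lowest signal on null array 3, and without it and B6 array 3 r was 0.943 for Srd5a3 and 0.387 for Vamp5. Neutrophil markers and defence genes are given with the lists of other genes.

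Lcn4, also known as vomeronasal secretory protein 2, had signals of 160.8 to 278.2 in null, 58.7 to 253.1 in B6 and 109.8 to 391.2 in 129/Sv glands. Lcn5, a retinoid-binding lipocalin of the epididymis, lay between 12.5 and 30.7 in null, 14.5 and 174.6 in B6 and 10.6 and 41.5 in 129/Sv glands. Lcn8, another epididymal lipocalin, lay between 202.7 and 231.3 in null, 165 and 385.3 in B6 and 156.7 and 278.8 in 129/Sv glands. In these 3 the groups overlapped in every comparison.

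Mup3, a urinary protein gene best known from liver, was measured by 2 probe sets. Probe set 1427249_x_at had signals of 3.8 to 5 in null, 4.6 to 16.1 in B6 and 5.1 to 21.9 in 129/Sv glands. Probe set 1427631_x_at had 37.5, 44.2 and 78.8 in null, against 198.5, 393.3, 540.3 and 57.3 in B6 and 222.3 and 211.4 in 129/Sv glands. In both, all null arrays were below both 129/Sv arrays (26.9% of all probe sets had no overlap here), while null and B6 arrays overlapped through B6 arrays 3 (1427249_x_at) and 4 (1427631_x_at).

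Without the filter, limma called 0 of the 6 dim probe sets in any of the 3 comparisons, while it called 1.03%, 0.941% and 2.58% of all 22626 probe sets against B6, against 129/Sv and between the strains. At an unadjusted p under 0.05 the number was 1 against B6, 1 against 129/Sv and 0 between the strains, with shares of 10.6%, 9.13% and 12.6% of all probe sets. That 1 was Mup3 1427631_x_at, with a log2 difference of -1.86 against B6 (SE 0.648, limma adjusted p = 0.271). The same probe set differed by -1.79 against 129/Sv (SE 0.775, limma adjusted p = 0.49). The no-filter adjusted p-values of all 6 lay between 0.271 and 0.999.

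**Figure D5:**
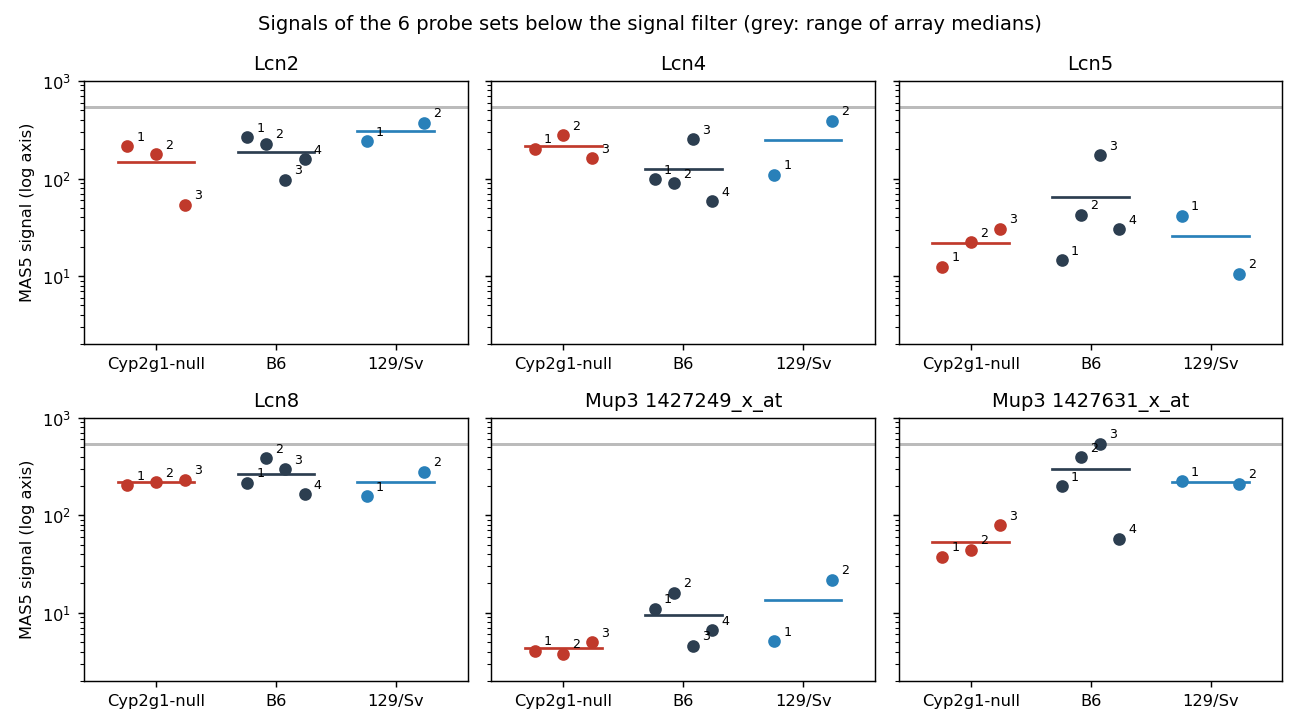
Signals of the 6 probe sets below the signal filter on each array (linear MAS5 units, log axis), with a grey band for the array medians (518.55 to 550.05) and lines at the group means of the signals. Every point lies below its array's median, and most groups overlap.

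Across the 4 tested members, limma called 1 against B6, 0 against 129/Sv and 0 between B6 and 129/Sv, while 2.18%, 2.04% and 5.19% of all tested probe sets were called in these comparisons. At an unadjusted p under 0.05 the number was 1 in each, which was Lcn3 each time, against 14.4%, 12.0% and 17.4% of all tested probe sets. The median log2 difference over the 4 members was -0.155 against B6, -0.007 against 129/Sv and 0.148 between the strains, with medians of 0.016, 0.003 and -0.013 over all tested probe sets.

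The lists of other genes below were chosen with earlier results of these data known. Other lipocalins were measured by 11 probe sets, and 3 passed the signal filter. Ptgds, which makes prostaglandin D2 and also binds hydrophobic ligands, was higher in null glands by both of its probe sets. Against B6 the log2 differences were 2.41 (SE 0.271, limma adjusted p = 0.000243) and 2.46 (SE 0.369, adjusted p = 0.00238). Those against 129/Sv were 2.37 (SE 0.324, limma adjusted p = 0.000819) and 2.65 (SE 0.441, adjusted p = 0.00455). Ptgds did not pass between B6 and 129/Sv, nor did Apod in any comparison (0.17 against B6, adjusted p = 0.659).

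Secretoglobins, small secreted proteins that bind steroids and pheromone-like ligands, had 3 of 6 probe sets above the filter. Scgb1b27, Scgb1b2 and Scgb2b27 passed against 129/Sv, all higher, with log2 differences of 2.66, 2.32 and 2.05 in null glands, and also between the strains, where they were 2.15, 2.15 and 1.33 higher in B6. Against B6 the list had 0 calls, and 2 of 3 had an unadjusted p under 0.05.

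Androgen-responsive products of salivary glands had 9 of 17 probe sets tested. Against B6, 4 were called as higher and 0 as lower in null glands, against 2.18% of all tested probe sets called in either direction. Among the 4 was Klk1b11 (log2 difference 1.27, limma adjusted p = 0.000597), a kallikrein protease. Against 129/Sv 0 passed, with 0 at an unadjusted p under 0.05. Between the strains 6 were called as lower in B6 and 0 as higher, against 5.19% of all tested probe sets called in either direction. The log2 difference of Klk1b11 was -1.54 there (limma adjusted p = 0.000113). Klk1 was called by probe sets with log2 differences of 0.59 and 0.65 against B6 (limma adjusted p = 0.0441 and 0.0369). The same probe sets were called between the strains, at -0.69 and -0.73 (limma adjusted p = 0.021 and 0.0205). Another probe set of Klk1 passed neither of these comparisons and differed by -0.004 against B6 and 0.30 between the strains.

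Receptors that take up lipocalins (2 of 7 probe sets tested), hormone signalling genes that act on urinary protein genes (16 of 21) and innate defence genes often measured with Lcn2 (10 of 16) had 0 calls by limma in all 3 comparisons. At an unadjusted p under 0.05 the counts against B6, against 129/Sv and between the strains were 1, 1 and 0 for the receptors, 2, 3 and 2 for the hormone genes and 3, 0 and 2 for the defence genes. The median log2 differences of the hormone genes were -0.075, -0.072 and 0.004.

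Markers of other cell types were read beside Lcn3. The 9 olfactory neuron probe sets summed to between 2423 and 8114 in null, 2984 and 12398 in B6 and 1818 and 3226 in 129/Sv glands, and Adcy3 passed between the strains (1.25 higher in B6, limma adjusted p = 0.0224). The 5 ciliated epithelium probe sets summed to between 15746 and 16860 in null, 10195 and 12138 in B6 and 11277 and 13066 in 129/Sv glands. Of the 5, 4 were called as higher in null than in B6 glands. The other, Foxj1, was 0.39 higher without passing (limma adjusted p = 0.17). Of all tested probe sets 2.18% were called against B6 in either direction. The 7 vomeronasal neuron probe sets summed to between 5634 and 7013 in null, 5500 and 6606 in B6 and 5707 and 5714 in 129/Sv glands, with 0 calls by limma and 0, 1 and 0 at an unadjusted p under 0.05. The 13 serous acinar probe sets summed to between 374372 and 414307 in null, 279898 and 313240 in B6 and 346467 and 368382 in 129/Sv glands. Against B6, 4 were called as higher and 1 as lower, the last a probe set of Slc12a2 (log2 difference -0.83, limma adjusted p = 0.00963). The summed ciliated and serous signals were higher in null than in B6 glands without overlap, while Lcn3 was lower. The serous sums include Car6, at 29312.4 to 70057.5 in null and 387.5 to 8017.5 in B6 glands. Without Car6 the serous sums of null and B6 glands would overlap. The part of ciliated and serous cells in the Lcn3 difference was not tested.

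Neutrophil markers had 4 of 7 probe sets tested, with 0 calls by limma and 2, 0 and 1 at an unadjusted p under 0.05. Their sums were 59582 to 74600 in null, 52627 to 60783 in B6 and 66630 to 76026 in 129/Sv glands, nearly all of it from Ltf, an iron-binding protein that glands also secrete. The log2 differences against B6 were 0.30 for Ltf, -0.47 for Ngp, -0.41 for S100a8 and -0.84 for S100a9, with limma adjusted p-values of 0.109, 0.497, 0.612 and 0.338. The 12 hepatocyte probe sets summed to 1036 to 1363 in null, 812 to 1290 in B6 and 906 to 1329 in 129/Sv glands, and none passed the filter. The skeletal muscle list likewise had 0 of 7 probe sets above the filter. The erythroid list had 1 of 5 above the filter and 0 calls by limma, with 0 at an unadjusted p under 0.05. None of the markers in these lists was listed at 0.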

How the data were processed

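RNA of pooled lateral nasal glands was measured on 9 arrays. The deposited table gives linear signal intensities. The submitters' processing notes name MAS5 without its version. All 9 columns were matched to samples by their labels. Without 64 control probe sets, 22626 of 22690 remained, and 20380 of them carried 1 gene symbol, 691 several and 1555 none. Detection calls were not used here. Precision is limited by the number of arrays.

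The log2(signal + 16) of each value was used without normalization between arrays, so fold changes of low signals are understated. Tested were the 12575 probe sets with a signal above the array median on 2 or more arrays. Using limma 3.58.1 under R 4.3.3, group means were fitted (lmFit, then trended eBayes), all 3 groups in 1 fit, with two-sided p-values adjusted by Benjamini-Hochberg over all tested probe sets and a threshold of 0.05. The fit was tested on simulated data. Means ± SD are of linear signals.

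Every member is given with its signals; Obp1a, Lcn2, Lcn3, Mup5 and any called member are given in full, with the 5 genes of the highest Pearson correlation over the arrays, and up to 4 passing members of each list may be named. Car6, Apod, Slc12a2, Dmbt1, Pigr, Bpifa1, Aqp5, Lyz1, Lyz2, Foxj1, Ltf, Ngp, S100a8 and S100a9 were named outside this rule, and Obp2a in full, after their values were seen. The members and lists were chosen with earlier results of these data known. RefSeq tables gave names, gene order and promoters. Alternatives were other normalizations, pseudocounts of 1 and 64, other filters, 1 probe set per gene, eBayes without trend, array weights, a replicate block, fits of only the groups compared, and arrays left out. No array batch is given in the labels.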

Additional observations from a re-analysis of the deposited data

How the results depend on the processing

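Lcn3 passed against B6 under all 21 alternatives, and with 1 array left out its log2 difference lay between -1.32 and -0.91 (limma adjusted p 0.00188 to 0.0215). Against 129/Sv and between the strains it passed under none. With 1 array left out, the number of members called was 1 against B6, 0 against 129/Sv and 0 between the strains each time.

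Directions of some differences that did not pass turned. For Mup5 these were -0.18 (null against B6) and 0.27 (B6 against 129/Sv) without B6 arrays 1 and 2, and -0.04 (null against 129/Sv) without 129/Sv array 2 (range with 1 array left out -0.04 to 0.23). Against 129/Sv, Obp2a was 0.15 without 129/Sv array 1 and 0.08 without null array 1 (range -0.15 to 0.15), and Obp1a was 0.09 and 0.08 (range -0.11 to 0.09). Between B6 and 129/Sv, Obp2a was -0.01 without 129/Sv array 2 (range -0.01 to 0.29) and Obp1a -0.06 under quantile normalization, which nearly fixes values at the top ranks. Lcn2, which was too dim to test, turned against B6 to 0.14 without null array 3 and 0.05 without B6 arrays 1 and 2. The cause was not tested.

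The titles' replicate numbers showed no sign of pairing the pools. Deviations of same-numbered arrays from their group means correlated between -0.075 and 0.096 (7 pairs), against -0.12 to 0.12 in the other 19. The 129/Sv deviations mirror each other by construction, which ties the 2 kinds of pairs together, so the comparison cannot settle whether pools are paired. With the number as a replicate block, 1 member passed between B6 and 129/Sv, against 0 without it: Mup5, with a log2 difference of -1.78 (limma adjusted p = 0.0283), and its difference of null against 129/Sv was -0.36. The 129/Sv arrays carry only the numbers 1 and 2, so the block sets them mainly against B6 arrays 1 and 2, where Mup5 was low. The number was used only as a name here.

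Over all probe sets, 274 were called against B6, but 611 without B6 array 1, 542 without B6 arrays 1 and 2, 490 with array weights, 154 with eBayes without trend, and 164, 165 and 153 without null arrays 1, 2 and 3. Against 129/Sv 256 were called, but 410 without B6 arrays 1 and 2, 127 without 129/Sv array 2, 146, 170 and 153 without null arrays 1, 2 and 3, 165 with 1 probe set per gene and 166 with eBayes without trend. Between the strains 653 were called, but 342 and 341 without 129/Sv arrays 1 and 2, and 407 with 1 probe set per gene. Few arrays, pooled mice and bright signals near the top of the scale limit all of these values, and 6 of the 10 probe sets were too dim to test.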
